A study of Mus musculus with 9 samples.

Results

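The genes described here make sterols and unsaturated fatty acids, or control that synthesis. They were examined in RNA flushed from mouse aortas, with and without induced endothelial deletion of the genes for the transcription factors MEF2A, MEF2C and MEF2D. The set was fixed by name as 32 genes of the SREBP pathway, and each was read from the brightest array feature (a transcript cluster, the probes for 1 transcript) that names it. Of the 32 genes, 28 were measured, against 30743 genes named in the whole table. A gene was tested where at least 4 of the 9 arrays lay above 6.165, the median of all deposited values, which kept 27 of the 28 measured members and 16694 genes in all. Lss was too dim to be tested. Srebf1, Tm7sf2 and Scd2 were listed only on features that name several genes and are not reported, and Acat2 was not found in the table of names used here.

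RNA came from 9 female mice, 1 thoracic aorta per array, on Clariom D arrays, which cover coding and non-coding transcripts. All mice carried loxP-flanked alleles (f/f) of Mef2a, Mef2c and Mef2d and received 5 daily injections of tamoxifen at 10 weeks of age. The 5 mice called ACDiEKO also carried Cdh5-CreERT2(+), a tamoxifen-activated Cre under the endothelial Cdh5 promoter, which deletes the 3 genes in endothelial cells. The 4 controls were littermates without Cre, so an effect of Cre itself cannot be told apart from that of the deletion. Aortas were harvested 7 days after the first injection by the series text and 14 by the sample protocols, and the labels do not settle which. RNA (5 ng) was taken by flushing TRIzol through the vessel lumen. The comparison asked which transcripts differed after the induced endothelial deletion of these MEF2 genes.

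The values are log2 values, and the features of ACDiEKO replicates 1 and 2 were nearly identical. The robust SD of their difference was 0.0707, against 0.268 to 0.401 in the other 15 pairs of arrays within a group. The titles give these 2 arrays separate animal numbers, and whether they hold the same RNA is not given. They were counted as 1 sample by their mean, so 4 control and 4 ACDiEKO samples were compared. Array medians were 6.17 to 6.23 in controls and 6.13 to 6.15 in ACDiEKO. The mean of 11 endothelial markers was 13.32 to 13.72 in controls and 13.23 to 13.70 in ACDiEKO samples. The defining markers of the labelled tissue were thus present, but single markers moved strongly in both directions. In ACDiEKO 3 of 11 were higher, led by Emcn (3.72) and Eng (1.53), and 3 were lower, led by Cldn5 (-3.59) and Tek (-1.92). None of the 3 floxed genes was lower in ACDiEKO, so they do not check the labels, and whether their probes lie in the deleted parts is not given in the sources used here. Mef2a differed by 0.12, Mef2c by 0.06 and Mef2d by 0.23 (adjusted p = 0.441, 0.660 and 0.111, limma), and every ACDiEKO sample of Mef2d, 10.42 to 10.68, lay above the controls, 10.15 to 10.38. Markers of other cell types moved with the group. All 10 markers of dividing cells passed the test as higher in ACDiEKO, with a mean of 6.54 to 6.80 in controls and 9.31 to 10.26 in ACDiEKO samples. Of 13 tested smooth muscle markers 9 were higher, with a list mean of 8.42 to 9.29 in controls and 9.62 to 10.48 in ACDiEKO. None of 10 tested leukocyte markers passed, with list means of 6.48 to 7.42 and 6.94 to 9.47, and ACDiEKO replicate 5 was the highest. None of 10 tested adipocyte markers passed either, and their mean spread widely within both groups, 7.58 to 9.40 in controls and 6.92 to 9.06 in ACDiEKO. Fibroblast (9.54 to 9.65 and 9.24 to 9.73), mesothelial (6.30 to 7.47 and 6.71 to 8.97) and erythrocyte (8.15 to 9.39 and 7.93 to 9.16) means overlapped between the groups, and Schwann cell means were 6.63 to 6.95 and 6.42 to 6.67. In such bulk samples, fewer cells of a type and less RNA per cell cannot be told apart.

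Sterol synthesis is set by a feedback loop. The precursor of SREBP2 (gene Srebf2) sits in the endoplasmic reticulum bound to its escort SCAP, and INSIG proteins hold the complex there while sterols are plentiful. When sterols fall, SCAP carries SREBP2 to the Golgi, where it is cleaved, and the freed domain enters the nucleus and turns on the genes of cholesterol synthesis and lipoprotein uptake, usually together with the promoter factors NF-Y and SP1. SREBP1 does the same mainly for fatty acid synthesis and desaturation. Endothelial cells can make their own sterols and also take them up from lipoproteins.

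Promoters of members that were higher in ACDiEKO, and of 1 that did not pass the test, are shown to place these elements. RefSeq windows of 300 bases (250 before and 50 after the transcription start, build GRCm38.p6) were found for 25 of the 32 members. The first 2 sequences belong to Idi1 and Msmo1, members that were higher in ACDiEKO. The third belongs to Hmgcs1, whose difference did not pass the test. Hmgcs1 alone among the 25 members with a window held the SREBP site searched for. Each sequence is given 5′ to 3′ on the gene's own strand, for the 250 bases before the start. Capitals mark the NF-Y box and the SREBP site on either strand. Idi1 lies at chr13:8885356-8885605 on the plus strand, Msmo1 at chr8:64733579-64733828 on the minus strand and Hmgcs1 at chr13:119690101-119690350 on the plus strand.
Idi1: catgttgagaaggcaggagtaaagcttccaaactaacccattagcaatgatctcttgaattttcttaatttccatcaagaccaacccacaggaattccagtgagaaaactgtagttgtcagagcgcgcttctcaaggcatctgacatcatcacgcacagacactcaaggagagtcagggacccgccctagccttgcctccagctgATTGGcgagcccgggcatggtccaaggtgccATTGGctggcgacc
Msmo1: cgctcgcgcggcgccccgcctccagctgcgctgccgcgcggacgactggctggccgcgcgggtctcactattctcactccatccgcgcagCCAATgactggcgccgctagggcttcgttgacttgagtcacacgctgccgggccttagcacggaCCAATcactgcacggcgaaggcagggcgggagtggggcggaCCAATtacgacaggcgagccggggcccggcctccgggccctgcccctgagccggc
Hmgcs1: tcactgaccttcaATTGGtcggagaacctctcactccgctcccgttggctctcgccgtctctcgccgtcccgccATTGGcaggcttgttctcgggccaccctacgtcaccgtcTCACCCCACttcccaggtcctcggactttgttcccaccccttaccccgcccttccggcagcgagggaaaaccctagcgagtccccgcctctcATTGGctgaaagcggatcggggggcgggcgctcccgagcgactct

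These stretches hold 2 NF-Y boxes in Idi1, 3 in Msmo1 and 3 in Hmgcs1, and the SREBP site of Hmgcs1 lies at -137 to -129 from the start. Some genes had several windows, and such a gene was counted once, where any of them held the motif. Over the whole windows and both strands, the NF-Y box CCAAT was present in 20 of 25 members (80%). It was present in 41.1% of all 27025 genes with a window. The GC box GGGCGG, bound by SP1, was present in 21 of 25 (84%), against 38.2% of genes. The SREBP site TCACNCCAC was present in 1 of 25 members, against 1.44% of genes. The MEF2 consensus was present in none of 25 members, against 3.70% of genes. Among the 96 matches in member windows, no 2 matches of different motifs shared bases. A match describes these letters only, and no match says nothing about the factor outside this window.

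Of the 27 tested members, 3 were higher in ACDiEKO (11.1%), namely Msmo1, Sqle and Idi1, and none was lower. By the same limma test, 8.86% of all tested genes were higher and 7.27% were lower, so the share of members lay near that of all genes. The median difference of the members was 0.07, against -0.03 for all tested genes. Of the tested members, 3 (Idi1, Sqle and Hsd17b7) lay above the filter value on fewer than 4 of the control arrays, so they entered the test through the ACDiEKO arrays, and the count is not read further. With no filter, 3.57% of genes were higher, and the members called were Msmo1 and Mvd. In 6 of 27 members (22.2%) every ACDiEKO sample lay above every control, against 12% of all tested genes. These 6 include Idi1 and Sqle, which entered the test through the ACDiEKO arrays, so this share is not read further either. No member had every ACDiEKO sample below every control, against 10.9%.

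**Figure D1:**
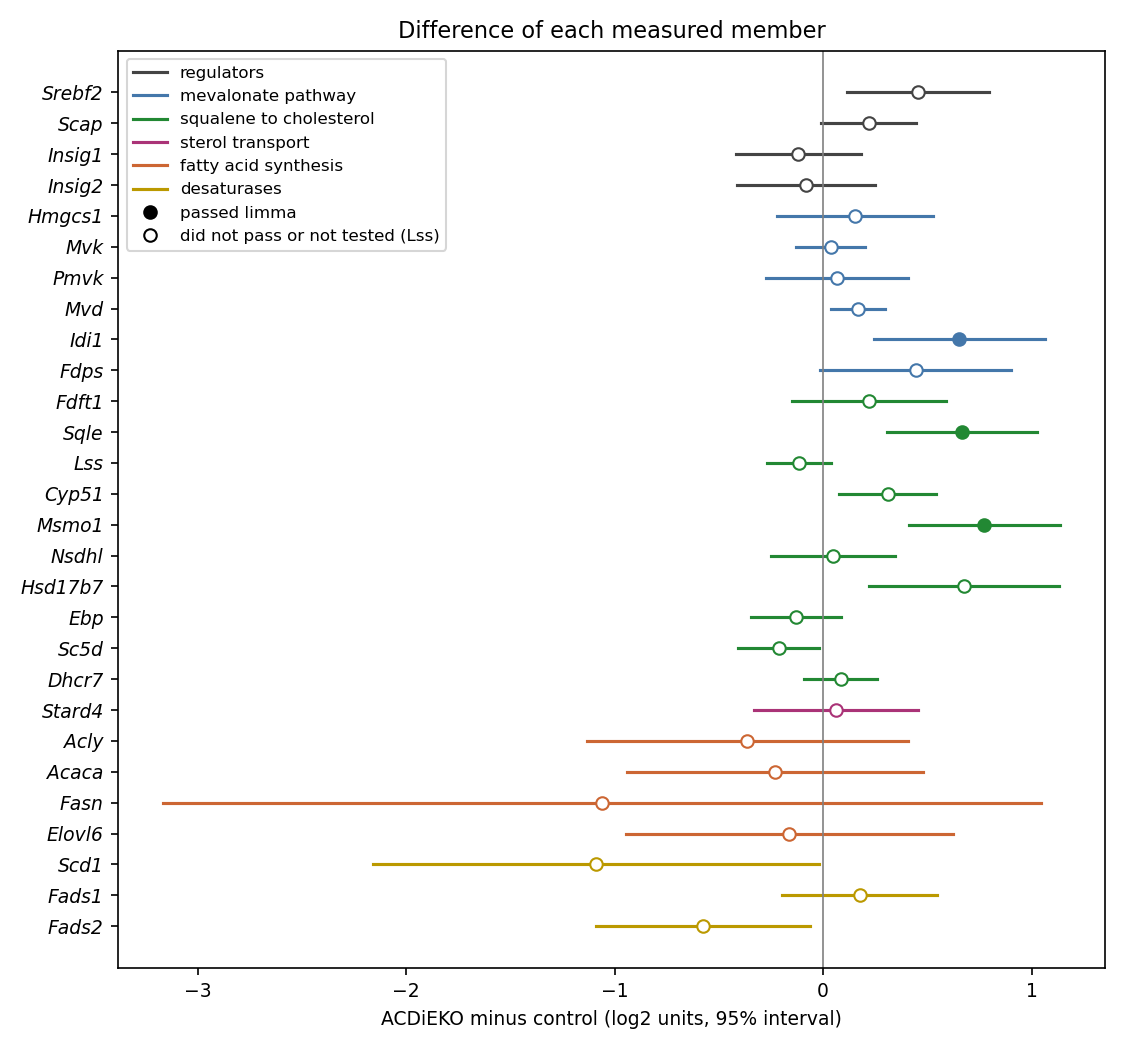
Difference of each of the 28 measured members, ACDiEKO minus control, in log2 units of the deposited values, with its 95% interval from limma (4 samples per group). Colours give the role, filled points passed the test, and the widest intervals are those of Fasn (-3.17 to 1.05) and Scd1 (-2.16 to -0.02).

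Among the regulators, 4 of 5 were measured and none passed the test, with a median difference of 0.07. Srebf2, which encodes the transcription factor SREBP2 itself, lay at 9.24, 8.78, 9.26 and 8.85 in control replicates 1 to 4. In ACDiEKO replicates 1 to 5 it lay at 9.77, 9.62, 9.62, 9.31 and 9.31. Its groups did not overlap, and the difference of 0.45 (SE 0.15) had an adjusted p of 0.0745 by limma. Scap, the escort of SREBP, lay at 9.17 to 9.49 in controls and 9.49 to 9.78 in ACDiEKO samples, a difference of 0.22 with an adjusted p of 0.170 by limma. Insig1 and Insig2, the retention proteins, differed by -0.12 and -0.08, with adjusted p of 0.562 and 0.730. Insig1 is itself a target of SREBP. In ACDiEKO its values spread more widely, 8.70 to 9.33, than in controls, 8.99 to 9.17.

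In the mevalonate pathway, which builds isoprenoid units from acetyl-CoA, 6 of 7 members were measured and 1 was higher. Idi1, the isomerase that makes dimethylallyl diphosphate, lay at 6.15, 6.28, 6.43 and 6.46 in control replicates 1 to 4. In ACDiEKO replicates 1 to 5 it lay at 6.86, 6.88, 7.53, 6.84 and 6.71. All ACDiEKO arrays lay above all controls, with replicate 3 the highest. The means were 6.33 ± 0.14 and 6.99 ± 0.37 (SD, n = 4 each). The adjusted p in the fit with no filter on dim genes was 0.0867, and with the filter the difference of 0.65 (SE 0.18) passed with an adjusted p of 0.0411 by limma. It passed in 2 of the 8 comparisons that left out 1 sample, without ACDiEKO replicate 3 (0.47, adjusted p = 0.0242) and without ACDiEKO replicate 5 (0.75, adjusted p = 0.0360). Without control replicates 1, 2, 3 or 4, ACDiEKO replicate 4 or the averaged ACDiEKO sample, the adjusted p was 0.0947, 0.0903, 0.0739, 0.0722, 0.0745 and 0.0735, and the difference stayed between 0.59 and 0.70.

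The other measured enzymes of the mevalonate pathway differed less than Idi1. Hmgcs1, which makes HMG-CoA, was 8.05, 8.57, 8.48 and 8.57 in controls and 8.95, 8.80, 8.57, 8.25 and 8.60 in ACDiEKO. The groups overlapped, and the difference of 0.15 had a 95% interval from -0.22 to 0.53 (adjusted p = 0.549, limma). The kinases Mvk and Pmvk differed by 0.04 and 0.07, with adjusted p of 0.769 and 0.791. Mvd, the decarboxylase that yields isopentenyl diphosphate, lay at 6.30 to 6.37 in controls and 6.47 to 6.56 in ACDiEKO samples. Its groups did not overlap, yet the difference was small, 0.17 (SE 0.06, adjusted p = 0.0852, limma). Fdps, which joins isoprenoid units into farnesyl diphosphate, was 7.99, 8.30, 8.25 and 8.56 in controls and 9.24, 9.19, 8.77, 8.56 and 8.32 in ACDiEKO, a difference of 0.44 (SE 0.20) with an adjusted p of 0.164. Its 2 near-identical ACDiEKO arrays were the highest, and its ACDiEKO replicates 4 and 5 lay within or at the edge of the controls.

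**Figure D2:**
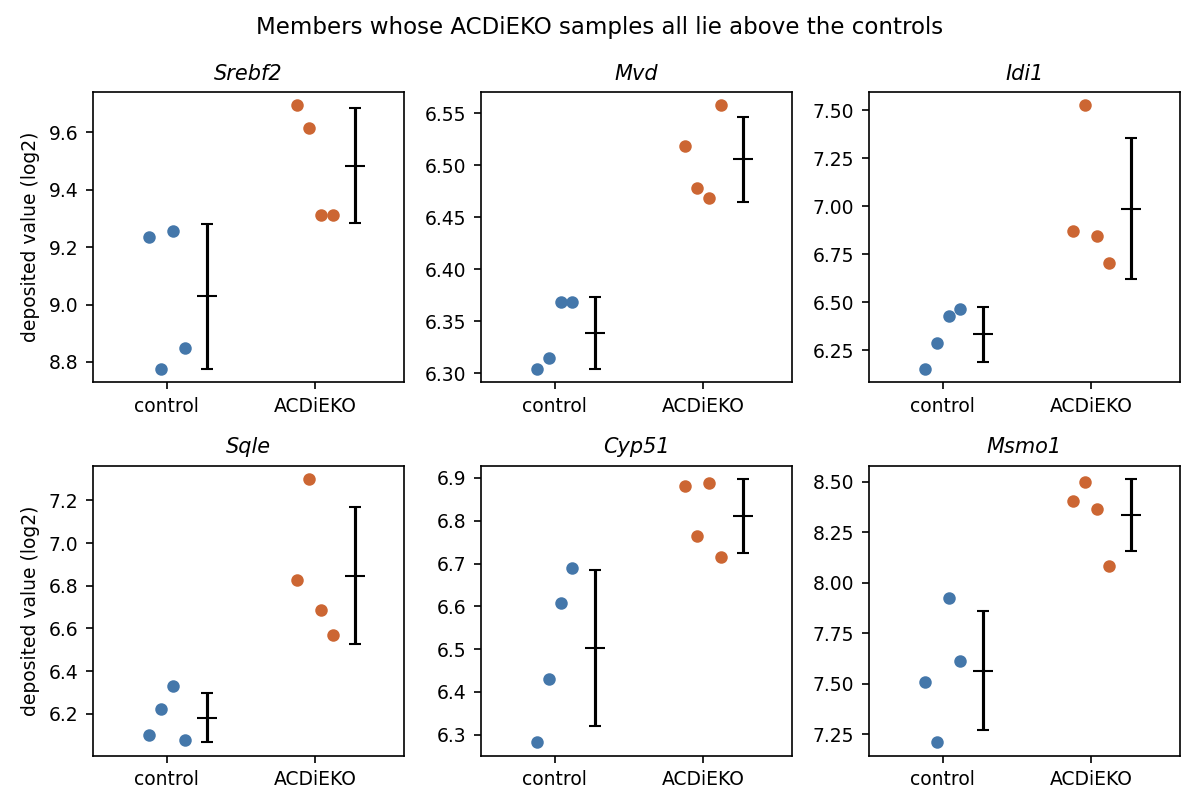
Deposited log2 values of the 6 members in which every ACDiEKO sample lay above every control, with 1 point per sample (ACDiEKO replicates 1 and 2 averaged) and the mean ± SD of 4 samples beside them; each panel has its own axis. Msmo1, Sqle and Idi1 differed by 0.77, 0.66 and 0.65, Srebf2 by 0.45, Cyp51 by 0.31 and Mvd by 0.17.

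From squalene to cholesterol, 10 of 11 members were measured and 9 tested, of which 2 were higher, with a median difference of 0.22. Msmo1, the oxidase that removes methyl groups from the early sterol ring, lay at 7.51, 7.21, 7.93 and 7.61 in controls. In ACDiEKO it lay at 8.43, 8.38, 8.50, 8.37 and 8.08, above every control. Its means were 7.56 ± 0.30 and 8.34 ± 0.18 (SD, n = 4 each), and the difference of 0.77 (SE 0.16) passed with an adjusted p of 0.0142 by limma. It was the only member to pass in all 8 comparisons that left out 1 sample, with adjusted p between 0.0110 and 0.0444 and differences between 0.65 and 0.89.

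Sqle, squalene epoxidase, the first oxygenation step and a rate-limiting enzyme of the later pathway, lay at 6.10, 6.22, 6.33 and 6.08 in controls. In ACDiEKO it lay at 6.90, 6.76, 7.30, 6.69 and 6.57, and no values overlapped. The means were 6.18 ± 0.12 and 6.85 ± 0.32 (SD, n = 4 each), and the difference of 0.66 (SE 0.16) had an adjusted p of 0.0248 by limma. In the fit with no filter on dim genes the adjusted p of Sqle was 0.0548. The call was lost without control replicate 1 (adjusted p = 0.0601), control replicate 2 (0.0529), control replicate 4 (0.0679) or the averaged ACDiEKO sample (0.0591), with differences between 0.63 and 0.68. The controls of Sqle and Idi1 lay close to the filter value of 6.165, and how well the array scales differences of such dim genes was not tested.

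**Figure D3:**
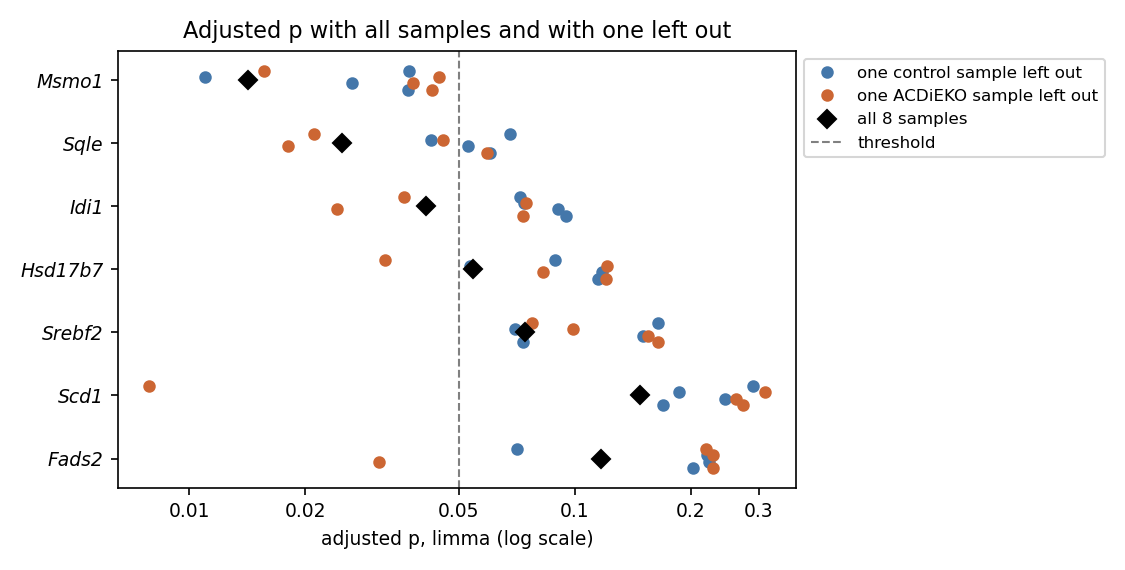
Adjusted p from limma on a log axis for 7 members, with all 8 samples (diamonds) and with 1 control (blue) or 1 ACDiEKO sample (orange) left out, and the threshold of 0.05 as a dashed line. All 8 points of Msmo1 lie left of the line, 4 of Sqle and 2 of Idi1 do, and for Scd1 only the point without ACDiEKO replicate 5 does.

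Other enzymes of this stretch were not called. Hsd17b7, the sterol ketoreductase that acts with Msmo1 and Nsdhl in demethylation, lay at 6.01, 5.82, 6.45 and 6.28 in controls and 6.95, 6.91, 6.68, 7.23 and 6.42 in ACDiEKO. ACDiEKO replicate 5 fell within the controls. The difference of 0.67 (SE 0.20) was as large as that of Sqle, with an adjusted p of 0.0544 by limma. In the 8 comparisons that left out 1 sample, adjusted p reached 0.121. Hsd17b7 passed only without ACDiEKO replicate 5 (0.81, adjusted p = 0.0323). Cyp51, the lanosterol demethylase, lay at 6.28, 6.43, 6.61 and 6.69 in controls and 6.90, 6.86, 6.76, 6.89 and 6.71 in ACDiEKO, without overlap. Its difference was 0.31 (SE 0.10), with an adjusted p of 0.0746 by limma. Fdft1, squalene synthase, differed by 0.22 (adjusted p = 0.381), and its controls split into 7.22 and 7.09 in replicates 1 and 3 and 7.82 and 7.68 in replicates 2 and 4.

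The remaining measured enzymes of this stretch, from early and late steps, showed small differences of both signs. Nsdhl, the decarboxylating dehydrogenase of demethylation, differed by 0.05 (adjusted p = 0.835). Ebp, the sterol isomerase, differed by -0.13 (adjusted p = 0.378). Sc5d, the sterol desaturase that follows it, was at 10.44 to 10.70 in controls and 10.20 to 10.44 in ACDiEKO samples, a difference of -0.21 (adjusted p = 0.122). Dhcr7, the reductase that completes cholesterol in this branch, differed by 0.08 (adjusted p = 0.476). Lss, which closes the sterol ring, lay at 6.03 to 6.27 in controls and 5.93 to 6.08 in ACDiEKO samples, and in the fit without a filter its adjusted p was 0.347 by limma. Some of these values are coarse: Dhcr7 had 1 value, 7.00, on 6 of the 9 arrays, and 6 of the 28 members had the same value on at least 3 arrays, as did 4492 of the 16694 tested genes. The cause was not tested.

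Stard4, which carries cholesterol between membranes and is a sterol-regulated gene, was 8.60, 8.92, 9.35 and 8.81 in controls and 9.29, 9.20, 8.97, 8.97 and 8.75 in ACDiEKO. The groups overlapped throughout (difference 0.06, adjusted p = 0.834, limma).

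All 10 markers of dividing cells and the mean of the smooth muscle markers had no overlap between the groups, as in Msmo1, Sqle and Idi1. The smooth muscle markers were not uniform: Acta2 and Tagln were higher by 3.19 and 3.82, while Myh11, Cnn1 and Myocd overlapped between the groups and differed by -0.04, -0.27 and -0.15. With the smooth muscle mean as a covariate, Msmo1, Sqle and Idi1 differed by 1.00, 1.03 and 1.23, with adjusted p of 0.492, 0.439 and 0.328. By limma, no gene of the whole table passed under that covariate, while 1357 genes had an unadjusted p under 0.05. Beyond these values, the part of smooth muscle RNA and of dividing cells in the sterol genes was not tested. With the adipocyte mean as a covariate, Msmo1 differed by 0.72 (adjusted p = 0.0194, limma), Sqle by 0.67 (0.0408) and Idi1 by 0.67 (0.0579). Without control replicates 2 and 4, a choice made after seeing the data that leaves 2 controls, Msmo1 differed by 0.62 (adjusted p = 0.0885), Sqle by 0.63 (0.150) and Idi1 by 0.70 (0.161), and Fdft1 was the only member called. With the run of animal numbers in the titles as a term, Sqle (0.69, adjusted p = 0.0798) and Idi1 (0.77, 0.0720) lost their calls, and without the 2 controls whose numbers lie apart (replicates 3 and 4) they did too (0.115 and 0.116), while Msmo1 passed under both.

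All 4 genes of fatty acid synthesis were measured and none passed, and the spread within the controls was larger than the difference between the groups. Fasn, fatty acid synthase, lay at 10.15, 12.56, 10.88 and 14.21 in control replicates 1 to 4 and at 10.89, 10.70, 11.70, 9.35 and 11.71 in ACDiEKO. Control replicates 2 and 4 were the highest of all arrays, and control replicate 1 lay below every ACDiEKO sample except replicate 4. The means were 11.95 ± 1.81 and 10.89 ± 1.11 (SD, n = 4 each), and the difference of -1.06 (SE 0.92) had a 95% interval from -3.17 to 1.05 (adjusted p = 0.457, limma).

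Control replicates 2 and 4 were likewise the 2 highest controls for each of the other genes of this group. Acly, which makes cytosolic acetyl-CoA from citrate, lay at 9.15, 10.12, 8.95 and 10.33 in controls and 8.94 to 9.58 in ACDiEKO samples, a difference of -0.36 (adjusted p = 0.484). Acaca, which makes malonyl-CoA, lay at 8.86, 9.23, 8.81 and 10.28 in controls and 8.81 to 9.23 in ACDiEKO samples, a difference of -0.23 (adjusted p = 0.646). Elovl6, which lengthens saturated chains, lay at 7.98, 8.53, 7.86 and 9.21 in controls and 7.58 to 8.76 in ACDiEKO samples, a difference of -0.16 (adjusted p = 0.779).

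The same 2 controls were the highest controls for 10 of 12 adipocyte markers and for 5 of the 21 members outside fatty acid synthesis and desaturation. Ucp1, the uncoupling protein of brown fat, was 11.53, 15.33, 13.03 and 15.71 in control replicates 1 to 4, and 12.42, 13.33, 7.53 and 12.82 in the ACDiEKO samples. Fasn followed it at both ends, with ACDiEKO replicate 4 the lowest in both genes. Without these 2 controls, Fasn differed by 0.37, Acly by 0.22, Acaca by 0.23 and Elovl6 by 0.31, so all 4 changed sign, and none passed. With the adipocyte mean as a covariate, Fasn differed by -0.58 (adjusted p = 0.432, limma). The part of fat cell RNA in these values was not tested further.

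**Figure D4:**
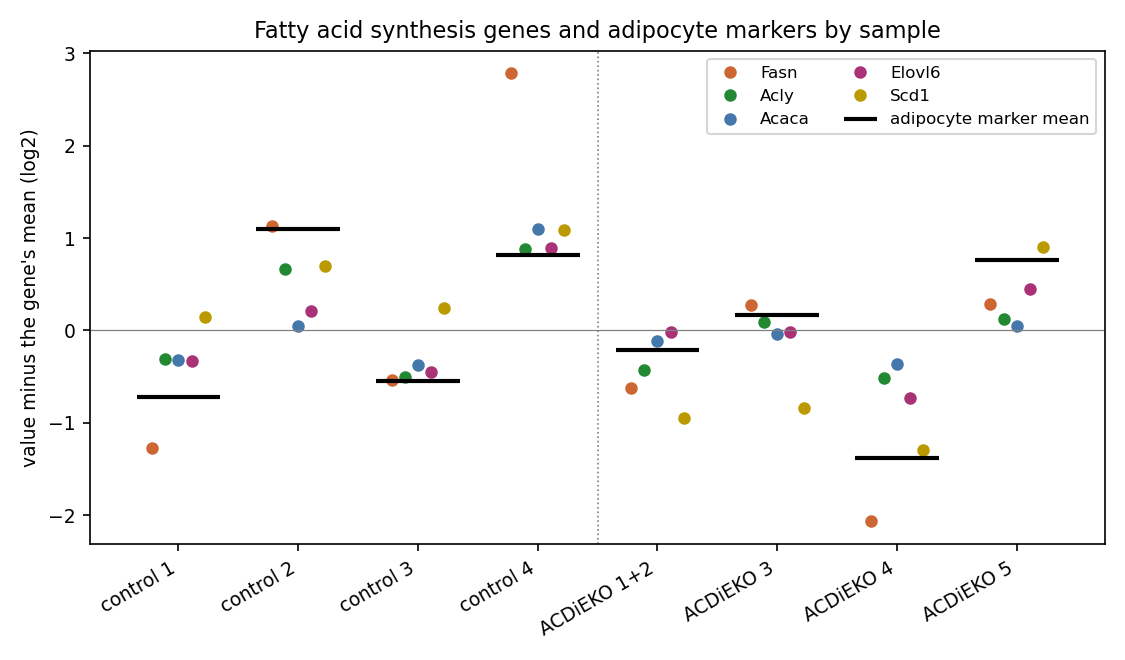
Values of Fasn, Acly, Acaca, Elovl6 and Scd1 in each of the 8 samples, as log2 difference from the gene's own mean over the samples (points), with the mean of 12 adipocyte markers treated the same way (black bars). Control replicates 2 and 4 stand high for these genes and for the markers, ACDiEKO replicate 4 stands low, and Scd1 is low in 3 of 4 ACDiEKO samples.

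Of the desaturases, which put double bonds into fatty acids, 3 of 4 were measured and none passed. Scd1, which makes oleate and palmitoleate from saturated chains, lay at 11.06, 11.61, 11.16 and 11.996 in controls and at 9.95, 9.98, 10.07, 9.62 and 11.81 in ACDiEKO. Replicates 1 to 4 of ACDiEKO lay below every control, and replicate 5 lay above 3 of the 4 controls. The means were 11.45 ± 0.43 and 10.37 ± 0.98 (SD, n = 4 each), and the difference of -1.09 (SE 0.47) had an adjusted p of 0.148 by limma. In the 8 comparisons that left out 1 sample, adjusted p reached 0.311. Scd1 passed only without ACDiEKO replicate 5 (-1.57, adjusted p = 0.0079). That replicate had the highest leukocyte marker mean, 9.47, against 6.48 to 7.58 in the other 7 samples. It also had the highest adipocyte mean of the ACDiEKO samples, 9.06. Its mesothelial mean, 8.97, was the highest of all samples, but ACDiEKO replicate 4, the lowest in Scd1, was close to it at 8.86. With the leukocyte mean as a covariate Scd1 differed by -1.72 (adjusted p = 0.0026, limma). ACDiEKO replicate 5 alone stood apart in that mean, so this fit is close to leaving that replicate out. With the adipocyte mean Scd1 differed by -0.88 (adjusted p = 0.115), and without control replicates 2 and 4 by -0.74 (0.496). With the smooth muscle mean, which had no overlap between the groups, it differed by 0.06 (adjusted p = 0.999), and no gene of the whole table passed under that covariate. A second, dimmer feature for Scd1 (mean 6.91, against 10.8) was not used.

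Fads2 and Fads1 desaturate polyunsaturated chains at the front end. Fads2 lay at 14.43, 14.56, 14.54 and 13.90 in controls and 13.62, 13.60, 14.36, 13.71 and 13.46 in ACDiEKO. Control replicate 4 and ACDiEKO replicate 3 crossed the groups. A second feature for Fads2 (mean 13.31, against 14.02) was not used. The difference of -0.58 (SE 0.22) had an adjusted p of 0.117 by limma. In the 8 comparisons that left out 1 sample, adjusted p reached 0.228. Fads2 passed only without ACDiEKO replicate 3 (-0.77, adjusted p = 0.0310). Fads1 lay at 11.81 to 12.23 in controls and 11.87 to 12.53 in ACDiEKO samples, a difference of 0.18 (adjusted p = 0.484). The differences of Fads2 and Fads1 thus had opposite signs, neither passed, and the contrast between them was not tested.

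Around these enzymes, 6 further lists of the pathway held 91 genes, of which 72 were tested. Of these, 9 were higher (12.5%) and 4 were lower (5.56%), near the 8.86% and 7.27% of all tested genes, and the lists' counts are given as descriptions against those shares. Their median difference was 0.02, against -0.03 for all genes. Among 12 tested genes of SREBP processing and sterol sensing, 3 were higher and none was lower, with a median difference of 0.07. Erlin1, an endoplasmic reticulum protein that binds cholesterol and restrains SREBP, lay at 9.97, 10.17, 10.33 and 10.13 in controls and 10.66 to 10.88 in ACDiEKO samples, a difference of 0.63 (SE 0.09, adjusted p = 0.0040). Kpnb1, the importin that takes SREBP2 into the nucleus along with many other cargoes, differed by 0.71 (SE 0.14, adjusted p = 0.0124). Both passed in all 8 comparisons that left out 1 sample. Sec24d, a cargo adaptor of the vesicles that leave the endoplasmic reticulum, differed by 0.83 (SE 0.18, adjusted p = 0.0186), and missed the threshold without the averaged ACDiEKO sample (0.0544) or ACDiEKO replicate 4 (0.0577).

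Among 13 other tested SREBP targets, 1 was higher and 1 lower. Tmem97, a sterol-binding membrane protein, differed by 0.60 (SE 0.16, adjusted p = 0.0393), and passed in 2 of 8 comparisons that left out 1 sample, those without control replicate 1 or ACDiEKO replicate 3; the others gave adjusted p of 0.0588 to 0.0983. Acacb, the mitochondrial form of acetyl-CoA carboxylase, was 9.84, 10.53, 10.34 and 10.50 in controls and 9.20, 9.05, 8.62 and 9.56 in the ACDiEKO samples. Every ACDiEKO sample lay below every control, the difference was -1.19 (SE 0.22, adjusted p = 0.0101), and it passed in all 8 such comparisons.

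Among 9 tested genes of LXR signalling and efflux, Abca1, the pump that loads cholesterol onto apolipoproteins, was the 1 gene called, and it was lower. It lay at 10.91, 10.41, 9.82 and 9.51 in controls and 8.88, 9.02, 9.08 and 9.20 in the ACDiEKO samples, a difference of -1.12 (SE 0.28, adjusted p = 0.0302). Its call was lost without control replicate 2 (0.0770), the averaged ACDiEKO sample (0.0785) or ACDiEKO replicates 3 (0.0662), 4 (0.0750) or 5 (0.0502). Among 13 tested genes of uptake and trafficking, 1 was higher and 1 lower. Scarb1, the HDL receptor, was higher, at 8.06, 8.03, 7.70 and 7.37 in controls and 9.21, 8.96, 8.64 and 8.50 in the ACDiEKO samples. Its difference of 1.04 (SE 0.20, adjusted p = 0.0118) passed in all 8 comparisons that left out 1 sample. Gramd1b, which moves plasma membrane cholesterol to the endoplasmic reticulum, was lower and differed by -0.60 (SE 0.16, adjusted p = 0.0412), and kept its call without control replicate 1 or ACDiEKO replicates 3 or 5 and lost it in the other 5 comparisons, with adjusted p up to 0.111.

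Of 12 tested genes of the isoprenoid branches, which draw on farnesyl diphosphate, Nus1, a subunit of the enzyme that makes dolichol chains, was higher by 0.44 (SE 0.10, adjusted p = 0.0208). It missed the threshold without ACDiEKO replicate 3 (0.0527). Fnta, the alpha subunit shared by the enzymes that attach farnesyl and geranylgeranyl groups to proteins, was lower, with a difference of -0.57 (SE 0.14, adjusted p = 0.0275), and passed only without control replicate 1 or ACDiEKO replicate 3, with adjusted p up to 0.0788 otherwise.

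Among 13 tested genes of fatty acid elongation and other desaturation, 3 were higher and none was lower, and the list's median difference was 0.07. Degs1, the desaturase that turns dihydroceramide into ceramide, lay at 8.73, 8.32, 8.63 and 8.75 in controls and 9.82, 9.69, 9.66 and 9.43 in the ACDiEKO samples. The difference of 1.04 (SE 0.12) had an adjusted p of 0.0018 by limma. Hacd1, a dehydratase of very long chain elongation that is abundant in muscle, lay at 8.38, 7.88, 7.80 and 8.39 in controls and 10.45, 9.33, 9.54 and 9.16 in the ACDiEKO samples, a difference of 1.51 (SE 0.29, adjusted p = 0.0110). Both groups of values were separate, and both calls held in all 8 comparisons that left out 1 sample. The smooth muscle marker mean also had no overlap between the groups, and its part in Hacd1 was not tested. Hsd17b12, the ketoreductase of elongation, differed by 0.41 (SE 0.10, adjusted p = 0.0286), and kept its call only without control replicate 3 or ACDiEKO replicate 3, with adjusted p up to 0.0806 otherwise.

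All adjusted p-values are from limma over all tested genes, and with 4 samples per group the number of arrays limits the precision. Control and ACDiEKO numbers mark separate mice, so the p-values measure the spread between animals.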

How the data were processed

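The 32 members and the other gene lists were chosen with earlier results of these data known. Per the submitters' processing notes, the authors made the deposited log2 values with RMA, which corrects background, normalizes arrays and summarises probes. They reach 19.34, above the 16 log2 units of a 16-bit scanner, so an unstated further scaling was applied, and differences are given in log2 units, never as folds. Build and annotation are not given in the sources used here. Clusters naming 1 gene were kept (31216 of 65956, with 827 symbols updated through RefSeq GRCm38.p6), the brightest per gene. ACDiEKO replicates 1 and 2 were averaged. The second control numbered 3 in the titles is called replicate 4. The groups were fitted in limma (version 3.58.1, R 4.3.3; two-sided, Benjamini-Hochberg, 0.05), a step checked on simulated data. Same-numbered arrays deviated with correlations of -0.00191, -0.146, 0.0346 and 0.0424 across genes, so numbers were not treated as pairs. All members are named, and up to 4 genes past the threshold from each other list. Alternatives were other normalizations, filters, variance models, covariates and samples left out. Promoters came from RefSeq.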

Additional observations from a re-analysis of the deposited data

Results flagged for a closer look

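In 5 of 56 groups of 4 samples checked (28 members in each of 2 genotypes), 1 sample lay apart from the other 3 by Dixon's criterion. Chance meets it in about 1 in 20 groups where values do not repeat. Scap and Dhcr7 had the same value in the other 3 ACDiEKO samples, so the count is not read against that rate. Scap was 9.78 in the averaged ACDiEKO sample and 9.49 in the other 3. Pmvk was 8.16 in ACDiEKO replicate 3 and 7.99 in the others. Nsdhl was 8.99 in control replicate 1 and 9.37 to 9.40 in the other controls. Dhcr7 was 6.77 in control replicate 1 and 7.00 to 7.01 in the other controls, and 7.11 in ACDiEKO replicate 4 and 7.00 in the others.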

How the results depend on the processing

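Genes called were 2693 with all samples, and 1694 with the run of animal numbers in the titles as a term, 1113 without the 2 controls whose numbers lie apart, 966 without control replicates 2 and 4 (chosen after seeing the data) and 0 with the smooth muscle mean as a covariate (limma, 1357 at an unadjusted p under 0.05). Members called higher were 3, and 0 under the stricter filter, which left 15 members and none of Msmo1, Sqle and Idi1, 7 with 9 arrays as samples, 0 with the smooth muscle covariate and 1 (Fdft1) without control replicates 2 and 4. Members called lower were 0, and 1 (Scd1) with the leukocyte covariate. Leaving out 1 sample gave 1680 to 2489 genes called, 1 to 4 members higher and 0 to 1 lower. With no filter, 1970 genes and 2 members (Msmo1 and Mvd) were called. The run of animal numbers kept the count of 3 members but called Cyp51, Hsd17b7 and Msmo1, and without the 2 controls apart Cyp51 and Msmo1 were called, so Sqle and Idi1 were lost under all 3. Idi1 was also lost, and Hsd17b7 called, with the adipocyte and leukocyte covariates. Counts moved less than 1.5 times under median centring, quantile normalization, array weights, cluster means, robust variance with a trend and the adipocyte covariate.

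With the replicate number as a replicate block on 9 arrays, 2365 genes were called, 4 members higher and 1 lower (Scd1, -1.42), and Insig2 differed by 0.0462. The numbers do not pair the animals.

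Signs reversed with the smooth muscle covariate in Insig1 (0.23), Insig2 (0.38), Mvk (-0.0599), Ebp (0.0431), Acly (0.38), Acaca (0.42), Fasn (1.95), Elovl6 (0.65) and Scd1 (0.0578). Acaca was at 0.0213 with the run of animal numbers and without the 2 controls whose numbers lie apart, and Elovl6 at 0.0156 with the adipocyte covariate. Without control replicates 2 and 4, Acly was at 0.22, Acaca at 0.23, Fasn at 0.37 and Elovl6 at 0.31. With 1 sample left out, Insig2 ran from -0.21 to 0.0402, Mvk from -0.0087 to 0.0816, Pmvk from -0.0529 to 0.20, Nsdhl from -0.0541 to 0.12, Stard4 from -0.0457 to 0.21, Acaca from -0.39 to 0.10 and Elovl6 from -0.34 to 0.11. The cause was not tested. Of all member values under alternatives, 540 kept direction and side of the threshold, 24 lost the call, 18 gained it and 27 reversed. Dim genes near 6.165 limit what Idi1, Sqle, Hsd17b7 and Lss can show.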
